A study of Danio rerio with 14 samples.

Results

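The genes described here are 37 zebrafish genes of fatty acid oxidation and of its Ppar regulators, chosen by gene name with earlier results of these data known. All 37 were found in the deposited table of 36109 genes, and all 37 were among the 24424 genes with enough reads to test. RNA was sequenced from whole zebrafish embryos at 48 and 24 hours post fertilization (hpf): mttp knockout embryos made with CRISPR/Cas9 ("mutants") and untreated embryos labelled sib ("siblings"), with 3 mutant and 3 sibling libraries at 48 hpf and 4 mutant and 4 sibling libraries at 24 hpf. The labels do not say whether siblings were wild type or heterozygous, whether libraries of a group came from separate clutches, or how many embryos were pooled, so p-values measure the spread between these libraries. The product of mttp is a lipid transfer protein that fills apolipoprotein B particles with triglyceride, the form in which the embryo draws lipid out of its yolk, and the comparison addresses which genes differ when this export is impaired.

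Fatty acids are burned in a chain of steps. Acyl-CoA synthetases activate them, the carnitine shuttle carries them into mitochondria, the beta-oxidation enzymes shorten them, and electron transfer flavoprotein passes their electrons to the respiratory chain. Peroxisomes shorten very long and branched chains by a parallel set of enzymes. The nuclear receptors of the Ppar family, which bind fatty acids and pair with Rxr receptors, switch on many genes of both routes in fasting liver, heart and muscle of mammals. In the fish embryo the yolk is the fatty acid supply, and the yolk syncytial layer around it releases the lipid.

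Values are CPM, read counts brought to a common library size after TMM scaling, and a change is a log2 fold change of mutants against siblings ± its SE. A gene was called at an adjusted p under 0.05 in edgeR's quasi-likelihood test (Benjamini-Hochberg over all genes tested), fitted on all 14 libraries. Library totals ranged from 29422983 to 46534187 counts, and the 37 genes took between 0.114% and 0.150% of each library. The knocked-out gene itself was lower in every mutant library than in every sibling library of its stage: from 6.23 to 11.4 CPM in mutants against 19.3 to 38.5 CPM in siblings at 48 hpf, and from 7.90 to 11.3 CPM in mutants against 67.3 to 79.6 CPM in siblings at 24 hpf. Sibling replicate 3 at 48 hpf stood apart, with the lowest correlation to the rest of its group (r = 0.945 over all genes tested, against 0.965 to 0.986 for the other 13 libraries). It had 0.696% of its counts in genes of the mitochondrial genome and sibling replicate 2 at 24 hpf had 0.847%, whereas the other 12 libraries had 1.27% to 1.97%. All 18 skeletal muscle, 10 heart and 10 neural marker genes had counts, as had the 15 markers of the yolk syncytial layer.

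Among the 37 genes, more fell than rose in the mutants at both stages. At 48 hpf this did not extend to all genes of the pathway: of 25 other tested mitochondrial oxidation genes, described below, 1 rose and 0 fell. At 24 hpf 0 of those 25 rose and 1 fell, and 18 had a negative change. Their median at 24 hpf was -0.17, near the -0.18 of the 37 genes. Of the 37, hadhab and acot17 fell at both stages and slc25a20 was called at both in opposite directions. Of the 16 genes called at 1 stage only, the test of the difference between stages called 5 (acsl1b, cpt1ab, crot, pparab and pdk4), so for the other 11 a difference between stages was not shown. At 48 hpf 12 of the 37 genes fell and 2 rose, where 6.06% of all genes tested were called, 1.80% lower and 4.26% higher. Most of these falls were in the beta-oxidation enzymes inside mitochondria, along with pdk4, and the gene that rose most clearly was the fatty acid receptor pparab. At 24 hpf 8 of 37 fell and none rose, where 3.82% of all genes were called, 2.33% lower and 1.50% higher. The falls at that stage were in the activation and entry genes acsl1b, cpt1ab and slc25a20, the electron carriers etfa and etfb, hadhab, hsd17b4 and acot17. For the count of none, edgeR gave 0 higher genes also at an unadjusted p under 0.05, and DESeq2 gave 0.

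**Figure D1:**
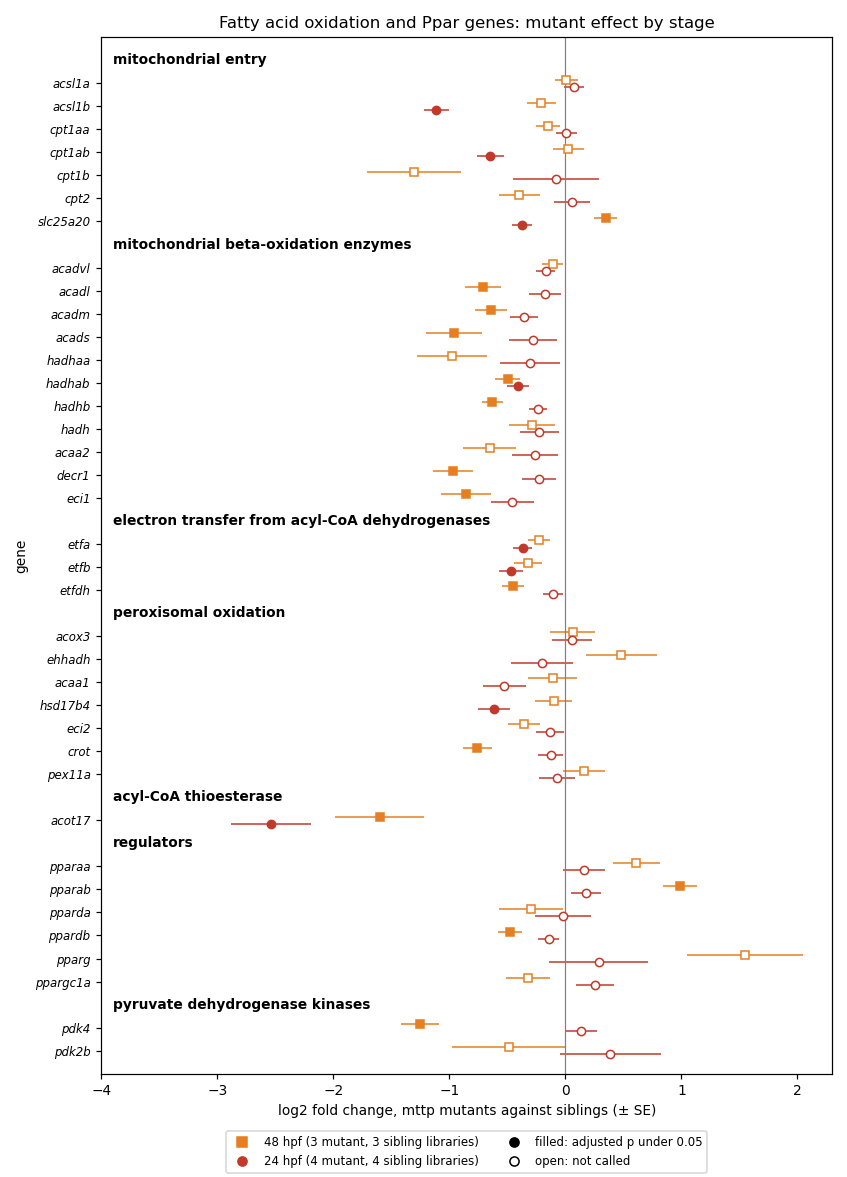
Log2 fold change of mutants against siblings (x axis, ± SE) for each of the 37 genes (y axis, grouped by role), with squares for 48 hpf and circles for 24 hpf, and filled symbols for an adjusted p under 0.05. The beta-oxidation enzymes lie left of 0 at both stages, further left at 48 hpf (median -0.65) than at 24 hpf (median -0.27), while acsl1b, cpt1ab and slc25a20 lie left of 0 at 24 hpf and near or right of it at 48 hpf.

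By role, 21 genes belong to the mitochondrial route, 7 to peroxisomes and 6 are regulators. The genes acot17, pdk4 and pdk2b, described below, are outside these counts. Of the 21 mitochondrial genes (entry, beta-oxidation and electron transfer), 8 fell and 1 rose at 48 hpf, and 6 fell and 0 rose at 24 hpf, with medians of -0.45 and -0.27. Of the 7 peroxisomal genes 1 fell at each stage, with medians of -0.099 at 48 hpf and -0.13 at 24 hpf. Of the 6 regulators 1 rose and 1 fell at 48 hpf and 0 were called at 24 hpf (0 also at an unadjusted p under 0.05, and 0 by DESeq2), with medians of 0.16 and 0.17. Over all genes tested the medians were -0.0046 and -0.0028. Because scaling by library size only moved the median of all genes at 24 hpf by 0.10, the 24 hpf values were also set on that scale: 5 of 37 genes were then lower and 0 higher, and the median of the 37 was -0.072 against 0.099 for all genes. On that scale the median of the 7 entry genes was 0.012, against -0.078 with TMM. All genes called at 24 hpf were then 550 higher and 313 lower (63.7% higher), against 366 higher and 568 lower with TMM (39.2% higher). At 48 hpf the share of calls that were higher was 70.3% with TMM and 58.8% with DESeq2, and for the difference between stages 76.7%, 66.7% with library size only and 63.3% with DESeq2.

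The mutants had less RNA of the long-chain acyl-CoA synthetase gene acsl1b, whose product activates fatty acids for oxidation, at 24 hpf. At 48 hpf the groups overlapped, with 58.6, 75.3 and 73.3 CPM in mutants against 71.0, 81.2 and 86.9 CPM in siblings (-0.21 ± 0.13, adjusted p = 0.438). The 4 mutant libraries at 24 hpf had 84.5, 80.2, 110.4 and 101 CPM of acsl1b, against 205, 216, 201 and 190.4 CPM in the 4 sibling libraries. Every mutant library was well below every sibling library (-1.11 ± 0.11, adjusted p = 7.01e-06 by edgeR). The negative change was thus smaller at 48 hpf than at 24 hpf, by a log2 difference of 0.90 ± 0.17 (adjusted p = 0.00580 in edgeR's test of the difference itself). The paralog acsl1a had no call at either stage (0.010 ± 0.10 at 48 hpf and 0.073 ± 0.088 at 24 hpf) and lay between 35.8 and 44.5 CPM in all 14 libraries. Whether the 2 paralogs differ in their response was not tested.

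Of the carnitine palmitoyltransferase genes, whose products make the acylcarnitines that can enter mitochondria, cpt1ab fell at 24 hpf. At 48 hpf cpt1ab had 88.7, 78.8 and 81.6 CPM in mutants against 71.3, 74.1 and 99.0 CPM in siblings, where sibling replicate 3 was above and the other siblings were below all mutants (0.027 ± 0.13, adjusted p = 0.950). The mutant libraries at 24 hpf had 42.3, 36.7, 52.0 and 45.6 CPM against 73.8, 66.0, 73.3 and 63.4 CPM in siblings, with no overlap (-0.65 ± 0.12, adjusted p = 0.00336). Its difference between stages was called narrowly (0.67 ± 0.18, adjusted p = 0.0491 by edgeR). That call was lost when any library was left out, except for mutant replicate 3 of 24 hpf and sibling replicate 3 of 48 hpf (adjusted p from 0.0539 to 0.118), and with RLE factors, library size only or the CPM filter (0.0555 to 0.0688). The paralog cpt1aa was not called at either stage (-0.15 ± 0.10 at 48 hpf and 0.0092 ± 0.088 at 24 hpf). Its libraries at 48 hpf narrowly did not overlap, with 27.5 to 30.6 CPM in mutants against 31.1 to 34.1 CPM in siblings.

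The muscle form cpt1b at 48 hpf had 4.47, 3.77 and 4.12 CPM in mutants against 11.0, 11.1 and 8.31 CPM in siblings, so the libraries did not overlap although edgeR did not call it (-1.30 ± 0.41, adjusted p = 0.0726). It was called by DESeq2 (adjusted p = 0.0170), and by edgeR without sibling replicate 2 at 24 hpf (0.0156) or with the libraries of the stage only (0.00687). At 24 hpf it was scarce and overlapped, with 1.44, 1.57, 2.41 and 0.785 CPM in mutants against 1.53, 0.532, 2.48 and 2.07 CPM in siblings. For cpt2, which turns acylcarnitine back into acyl-CoA inside mitochondria, the change was -0.40 ± 0.18 at 48 hpf and 0.056 ± 0.16 at 24 hpf, neither of them called. Its libraries at 48 hpf narrowly did not overlap, with 13.3 to 15.5 CPM in mutants against 15.8 to 22.2 CPM in siblings.

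The carrier gene slc25a20, whose product swaps acylcarnitine for carnitine across the inner mitochondrial membrane, changed in opposite directions at the 2 stages. At 48 hpf it had 80.4, 81.9 and 79.1 CPM in mutants against 56.6, 65.4 and 67.5 CPM in siblings (0.35 ± 0.097, adjusted p = 0.0425). At 24 hpf it had 92.3, 111, 98.8 and 95.2 CPM in mutants against 118, 141, 127 and 128 CPM in siblings (-0.37 ± 0.084, adjusted p = 0.0176). The groups did not overlap at either stage, and the difference between the effects was 0.72 ± 0.13 (adjusted p = 0.00424), called under all 21 alternatives run for it. Each single-stage call was less stable. The rise at 48 hpf was lost without any single library of that stage other than sibling replicate 3, or without sibling replicate 3 or 4 or mutant replicate 1, 3 or 4 at 24 hpf (adjusted p from 0.0574 to 0.138), and the fall at 24 hpf without sibling replicate 2 or mutant replicate 1, 3 or 4 of that stage (0.0594 to 0.0808) or with library size only (0.0770).

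**Figure D2:**
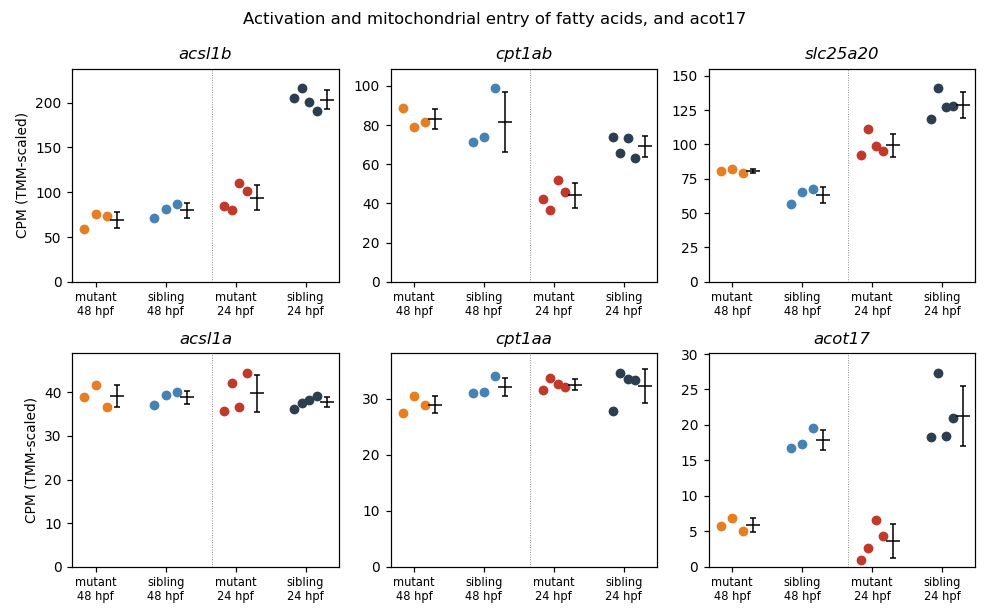
CPM in each library (y axis, TMM-scaled) for 3 entry genes that fell in mutants at 24 hpf, their paralogs acsl1a and cpt1aa, and the thioesterase gene acot17, with points for libraries and a bar for mean ± SD (n = 3 per group at 48 hpf, n = 4 at 24 hpf). Mutants lie below siblings at 24 hpf for acsl1b, cpt1ab, slc25a20 and acot17, while at 48 hpf slc25a20 lies above, acot17 still below and cpt1aa narrowly below.

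Inside mitochondria, all 11 beta-oxidation genes had a negative change at both stages, where 12358 of 24424 genes tested had one at 48 hpf and 12298 at 24 hpf. The trait was not particular to them: of 20 tested nuclear genes of the respiratory chain and citrate synthase, 17 had a negative change at 48 hpf and 20 at 24 hpf. The medians of those 20 were -0.14 and -0.25, and 10 and 12 of them were below without overlap. At 48 hpf 7 of the 11 fell, their median change was -0.65, and in 9 every mutant library was below every sibling library. Over all 37 genes, 19 were below without overlap and 4 above at 48 hpf, where 10.6% and 12.0% of all genes tested were. These genes did not vary independently between libraries. Among the siblings of 48 hpf, replicate 1 was the lowest for 29 of the 37 and replicate 3 the highest for 23. The median log2 distance of replicate 1 from the other siblings was -0.23 for the 37, against 0.025 for all genes tested. At 24 hpf 1 of the 11 fell (hadhab) and 3 were below without overlap. Over all 37 genes, 11 were below without overlap and none above at 24 hpf, where 8.59% and 5.00% of all genes were. The test of the difference between the stages called 0 of the 11 (edgeR), although 10 of 11 differences were negative with a median of -0.40. At an unadjusted p under 0.05 edgeR gave 4 of these differences as lower, and DESeq2 called 2 (hadhb, adjusted p = 0.0134, and decr1, 0.0260). A greater fall at 48 hpf was therefore not shown by edgeR, although it called hadhb with the CPM filter (adjusted p = 0.0448) and decr1 without mutant replicate 2 of 24 hpf (0.03).

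Of the genes for the trifunctional protein, which performs the last steps on long chains, hadhb (the beta subunit) fell at 48 hpf. The libraries had 65.6, 65.8 and 60.9 CPM of hadhb in mutants against 89.8, 104.9 and 102.8 CPM in siblings, with no overlap (-0.63 ± 0.092, adjusted p = 0.000290). That call held under all 22 alternatives. At 24 hpf hadhb had 60.9, 63.1, 71.3 and 65.5 CPM in mutants against 79.9, 78.9, 71.1 and 76.6 CPM in siblings, where the highest mutant library just passed the lowest sibling (-0.23 ± 0.079, adjusted p = 0.126).

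The alpha subunit has 2 genes. For hadhab the libraries at 48 hpf had 81.8, 80.6 and 84.0 CPM in mutants against 93.8, 116 and 138 CPM in siblings (-0.50 ± 0.11, adjusted p = 0.0103), and at 24 hpf 81.5, 73.5, 77.7 and 74.7 CPM in mutants against 102, 106, 105 and 95.5 CPM in siblings (-0.41 ± 0.096, adjusted p = 0.0227). The mutants were thus below the siblings at both stages, and the difference between stages was not called (-0.090 ± 0.15, adjusted p = 0.854). The call at 24 hpf was lost without sibling replicate 2 or 3 or mutant replicate 2, 3 or 4 (adjusted p from 0.0614 to 0.0846) or with library size only (0.0686), and that at 48 hpf with the libraries of the stage only (0.102). The other gene, hadhaa, lies next to hadhb in the RefSeq gene order of the assembly GRCz12tu. It had 26.9, 19.2 and 18.3 CPM in mutants against 43.5, 35.2 and 48.0 CPM in siblings at 48 hpf, below without overlap but not called (-0.98 ± 0.30, adjusted p = 0.0727, but 0.0274 without mutant replicate 2 and 0.0450 without sibling replicate 2 of 24 hpf, and 0.0165 with the libraries of the stage only). At 24 hpf its libraries were widely spread, from 15.1 to 38.9 CPM in mutants and from 22.1 to 49.6 CPM in siblings.

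The acyl-CoA dehydrogenases take the first electrons from chains of different length, and 3 of these 4 genes fell at 48 hpf. For acadm, of medium chains, the libraries had 28.0, 29.0 and 31.8 CPM in mutants against 45.2, 46.2 and 47.3 CPM in siblings, 2 tight groups far apart (-0.64 ± 0.14, adjusted p = 0.00778). For acadl, of long chains, they had 20.1, 18.7 and 16.9 CPM in mutants against 25.6, 32.5 and 33.1 CPM in siblings (-0.71 ± 0.16, adjusted p = 0.00992). For acads, of short chains, they had 8.00, 13.4 and 12.3 CPM in mutants against 19.4, 21.3 and 24.9 CPM in siblings (-0.96 ± 0.24, adjusted p = 0.0234). None of the 3 overlapped between the groups, but each call depended on single libraries of the stage. It was lost for acadm without mutant replicate 1 (adjusted p = 0.0516), for acadl without mutant replicate 3 (0.0688), and for acads without sibling replicate 2 or 3 or mutant replicate 1 or 3 (0.0523 to 0.132). The very-long-chain gene acadvl was not called at 48 hpf, with 115 to 134 CPM in mutants against 120.0 to 148 CPM in siblings (-0.11 ± 0.093, adjusted p = 0.606). At 24 hpf the 4 genes ranged from -0.35 ± 0.12 (acadm) to -0.17 ± 0.080 (acadvl), and 0 of them were called, although acadm was without sibling replicate 1 of that stage (adjusted p = 0.0431). The libraries of acadvl at 24 hpf did not overlap, with 112 to 117 CPM in mutants against 122 to 139 CPM in siblings.

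The auxiliary enzymes that prepare unsaturated chains also fell at 48 hpf. The reductase gene decr1 had 9.22, 8.37 and 8.20 CPM in mutants against 14.2, 15.8 and 20.5 CPM in siblings (-0.97 ± 0.17, adjusted p = 0.00195), and was called under all 22 alternatives. The isomerase gene eci1 had 13.5, 13.0 and 11.8 CPM in mutants against 16.3, 19.5 and 33.3 CPM in siblings. Both genes were lower in every mutant library, but sibling replicate 3 was far above the other siblings for eci1 (-0.85 ± 0.21, adjusted p = 0.0226). Without it the change of eci1 was -0.49 and was not called (adjusted p = 0.106), and the call was also lost without mutant replicate 1, 2 or 3 (0.0620 to 0.107) or with the libraries of the stage only (0.108). At 24 hpf eci1 had 15.0 to 20.0 CPM in mutants against 20.2 to 29.9 CPM in siblings, not called (-0.46 ± 0.18, adjusted p = 0.209, or 0.0408 without sibling replicate 3 of 48 hpf). For the thiolase gene acaa2, of the last step, mutants at 48 hpf had 32.0 to 47.5 CPM against 49.2 to 78.6 CPM in siblings, below without overlap but not called (-0.65 ± 0.23, adjusted p = 0.113, or 0.0470 without sibling replicate 1, and 0.0389 by DESeq2). The dehydrogenase gene hadh, of medium and short chains, overlapped at both stages (-0.29 ± 0.19 at 48 hpf and -0.22 ± 0.17 at 24 hpf).

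**Figure D3:**
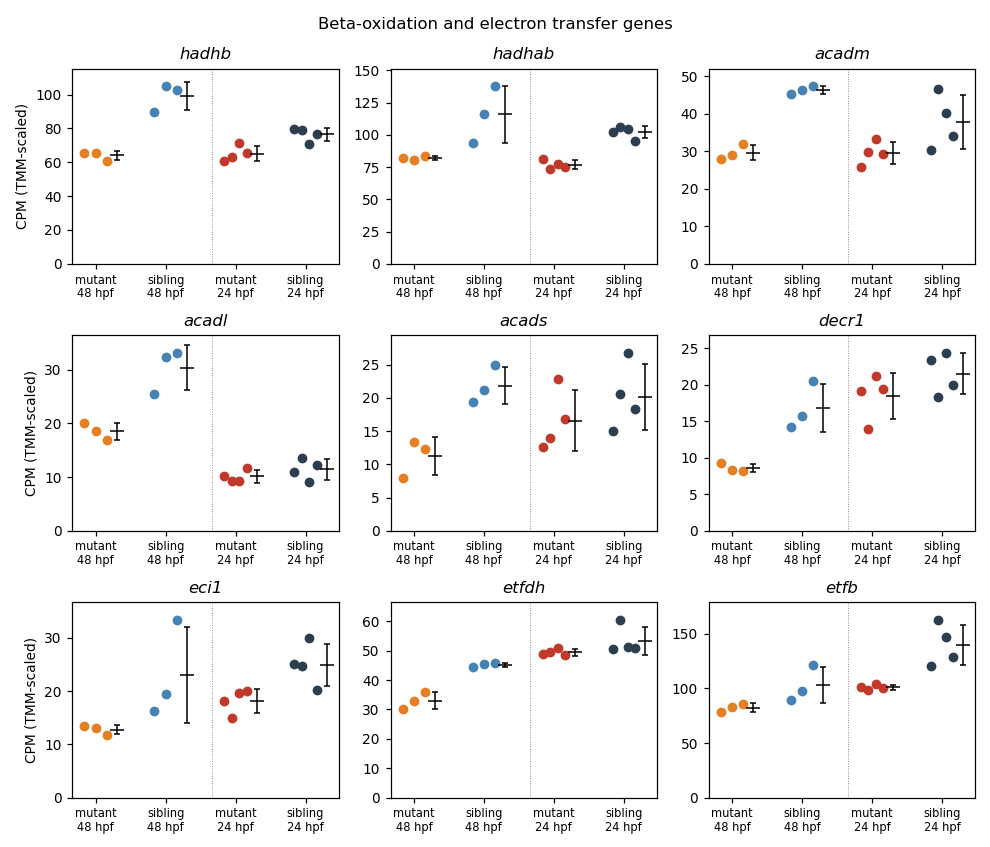
CPM in each library (y axis, TMM-scaled) for 7 genes of mitochondrial beta-oxidation and 2 of electron transfer, with points for libraries and a bar for mean ± SD (n = 3 per group at 48 hpf, n = 4 at 24 hpf). At 48 hpf the mutants lie below the siblings in all 9 panels, while at 24 hpf the groups are apart for hadhab, eci1 and etfb and overlap in the other 6.

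Electron transfer flavoprotein, which takes electrons from the acyl-CoA dehydrogenases, was lower in mutants in both of its subunit genes at 24 hpf. At 48 hpf neither was called (-0.23 ± 0.095 for etfa and -0.32 ± 0.12 for etfb), although for both every mutant library was below every sibling library. Their differences between stages were 0.14 ± 0.13 and 0.15 ± 0.16, not called. For etfa the libraries at 24 hpf had 83.6, 76.0, 89.2 and 80.4 CPM in mutants against 112, 101, 106 and 105 CPM in siblings (-0.37 ± 0.082, adjusted p = 0.0180). For etfb they had 101, 98.1, 104 and 99.8 CPM in mutants against 121, 162, 147 and 129 CPM in siblings (-0.47 ± 0.10, adjusted p = 0.0148). The groups did not overlap for either gene, and the spread of etfb was smaller among mutants. These calls were lost for etfa without sibling replicate 1 or mutant replicate 1, 2 or 4 (adjusted p from 0.0516 to 0.0877) or with library size only (0.123), and for etfb without sibling replicate 2 or 3 or mutant replicate 4 (0.0511 to 0.0540).

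The dehydrogenase gene etfdh, whose product hands these electrons on to ubiquinone, fell at 48 hpf. It had 30.0, 33.0 and 36.1 CPM in mutants against 44.5, 45.4 and 45.8 CPM in siblings (-0.45 ± 0.096, adjusted p = 0.00760). The call was lost without mutant replicate 1 (adjusted p = 0.0598) or with the libraries of the stage only (0.0640). At 24 hpf etfdh was not called (-0.11 ± 0.083, adjusted p = 0.611).

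Of the genes described here, the 7 peroxisomal ones mostly overlapped between mutants and siblings. At 48 hpf crot, whose product makes medium-chain carnitine esters that can leave peroxisomes, fell: its libraries had 12.9, 12.5 and 12.7 CPM in mutants against 20.6, 21.1 and 23.0 CPM in siblings (-0.76 ± 0.12, adjusted p = 0.000875). That call held under all 22 alternatives. At 24 hpf crot overlapped, with 13.5 to 17.6 CPM in mutants against 15.1 to 18.3 CPM in siblings (-0.13 ± 0.11). The difference between stages was called (-0.63 ± 0.16, adjusted p = 0.0450), but not without any single library other than sibling replicate 1 or mutant replicate 3 at 24 hpf (adjusted p from 0.0514 to 0.105).

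At 24 hpf hsd17b4, the multifunctional enzyme of the middle steps in peroxisomes, fell. At 48 hpf it overlapped (-0.099 ± 0.16). Its libraries at 24 hpf had 15.9, 20.5, 19.2 and 20.0 CPM in mutants against 23.6, 36.3, 30.8 and 25.1 CPM in siblings, with no overlap (-0.62 ± 0.14, adjusted p = 0.0200). The call was lost without sibling replicate 2 or 3 or mutant replicate 1 or 3 (0.0524 to 0.0770). The thiolase gene acaa1 was below without overlap at 24 hpf, with 8.08 to 10.9 CPM in mutants against 12.2 to 17.4 CPM in siblings, but was not called (-0.52 ± 0.18, adjusted p = 0.135, or 0.0314 without sibling replicate 3 at 48 hpf). The oxidase gene acox3, the bifunctional enzyme gene ehhadh, the isomerase gene eci2 and the peroxisome division gene pex11a were called at neither stage, with changes from -0.36 to 0.48 at 48 hpf and from -0.20 to 0.054 at 24 hpf, although eci2 was called lower at 48 hpf without sibling replicate 1 (adjusted p = 0.0467).

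The acyl-CoA thioesterase gene acot17, whose family splits acyl-CoA back into fatty acid and CoA, had the most negative change of the 37 genes at both stages. At 48 hpf its libraries had 5.77, 6.93 and 5.02 CPM in mutants against 16.8, 17.3 and 19.5 CPM in siblings (-1.60 ± 0.38, adjusted p = 0.0172). At 24 hpf they had 0.995, 2.65, 6.55 and 4.32 CPM in mutants against 18.2, 27.3, 18.4 and 20.9 CPM in siblings (-2.54 ± 0.35, adjusted p = 0.000222). The mutants were far below the siblings at both stages, and the difference between stages was not called (0.94 ± 0.50, adjusted p = 0.399). The 48 hpf call was lost without mutant replicate 1 (adjusted p = 0.0733) or 3 (0.0942). In the RefSeq gene order acot17 lies next to acot18, and reads that similar family members share can have been counted for either of them or for none. Of the 6 other tested genes from acot14 to acot22, a set chosen after the values of acot17 were seen, 1 fell at 24 hpf (acot14, -0.55 ± 0.14, adjusted p = 0.0428) and 0 were called at 48 hpf. The neighbour acot18 measured 0.21 ± 0.19 at 48 hpf and -0.30 ± 0.17 at 24 hpf.

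Among the regulators, the mutants had more RNA of pparab at 48 hpf. This gene encodes a Ppar alpha, the receptor that switches on fatty acid oxidation genes in mammalian liver. Its libraries had 27.6, 26.9 and 25.5 CPM in mutants against 15.3, 11.3 and 13.6 CPM in siblings, well apart (0.99 ± 0.15, adjusted p = 0.000351). The rise held under all 22 alternatives. At 24 hpf the groups overlapped, with 8.24 to 11.3 CPM in mutants against 7.94 to 9.49 CPM in siblings (0.18 ± 0.13, adjusted p = 0.584). The difference between stages was called (0.81 ± 0.20, adjusted p = 0.0299), but not without sibling replicate 2 or 3 or mutant replicate 1, 2 or 3 at 24 hpf, or sibling replicate 2 or any single mutant replicate at 48 hpf (adjusted p from 0.0521 to 0.0775). The other Ppar alpha gene, pparaa, was also above without overlap at 48 hpf but was not called. It had 12.5, 11.1 and 13.1 CPM in mutants against 8.84, 6.27 and 8.83 CPM in siblings (0.61 ± 0.20, adjusted p = 0.0928).

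The gene ppardb, a Ppar delta, fell at 48 hpf, the opposite direction to pparab. Its libraries had 25.8, 30.3 and 28.4 CPM in mutants against 37.5, 36.1 and 43.9 CPM in siblings (-0.48 ± 0.10, adjusted p = 0.00964). The call was lost without mutant replicate 1 (adjusted p = 0.0695) or with the libraries of the stage only (0.0825). Its paralog pparda overlapped between the groups at both stages (-0.29 ± 0.28 at 48 hpf and -0.019 ± 0.24 at 24 hpf).

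The gene pparg, known in mammals for fat cell formation, had 5.63, 5.90 and 6.54 CPM in mutants against 2.71, 3.25 and 0.275 CPM in siblings at 48 hpf. The mutants were above all siblings, and sibling replicate 3, with 12 reads, was far below the other siblings. The gene was not called (1.55 ± 0.50, adjusted p = 0.0866), and without sibling replicate 3 the change was 1.01 and was called (adjusted p = 0.0229), as it was without sibling replicate 2 (2.04, adjusted p = 0.0494) and by DESeq2 (0.0320). The coactivator gene ppargc1a, known for driving mitochondrial genes, overlapped at both stages and was not called (-0.32 ± 0.19 at 48 hpf and 0.26 ± 0.16 at 24 hpf).

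The kinase gene pdk4, whose product shuts pyruvate dehydrogenase and so spares glucose when fatty acids are burned, fell at 48 hpf. Its libraries had 11.9, 16.5 and 14.8 CPM in mutants against 32.1, 37.2 and 34.0 CPM in siblings, with no overlap (-1.25 ± 0.16, adjusted p = 9.36e-05). At 24 hpf they had 16.5, 14.1, 21.3 and 18.9 CPM in mutants against 18.6, 13.8, 15.4 and 16.8 CPM in siblings, which overlapped (0.14 ± 0.14, adjusted p = 0.733). The effect at 48 hpf was below that at 24 hpf by a log2 difference of -1.39 ± 0.21 (adjusted p = 0.00129), called under all 21 alternatives run for it. The related kinase gene pdk2b was scarce and widely spread, and was not called (-0.48 ± 0.49 at 48 hpf and 0.39 ± 0.43 at 24 hpf).

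**Figure D4:**
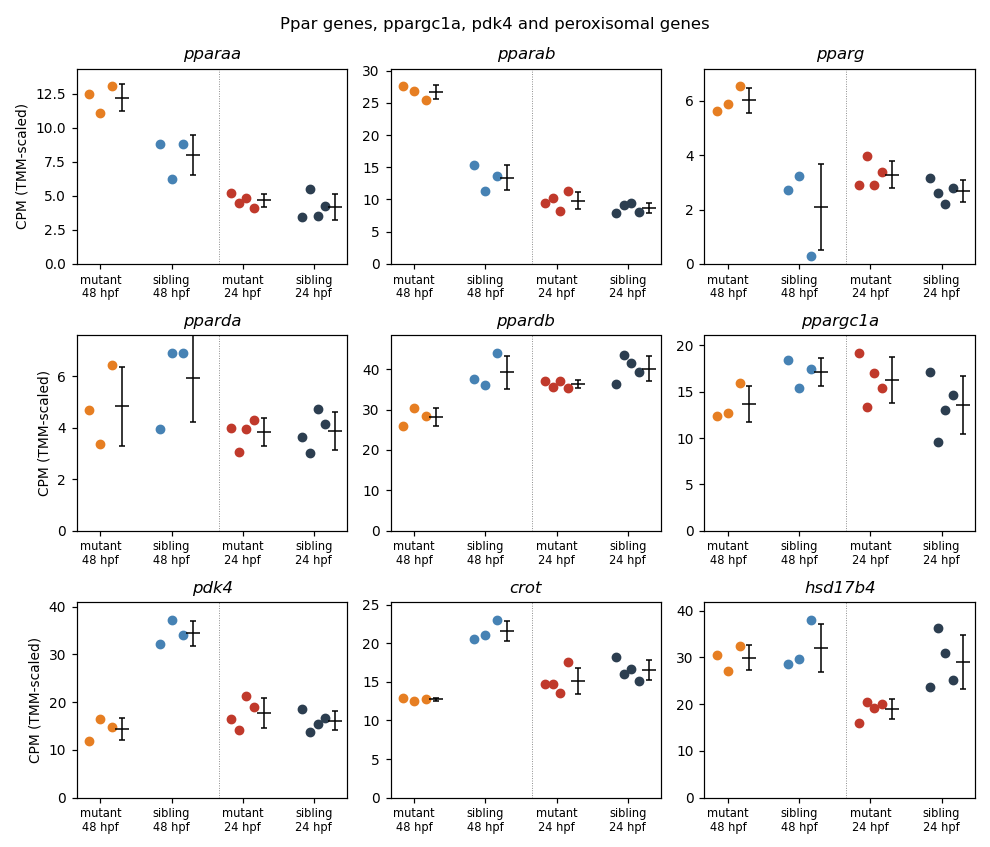
CPM in each library (y axis, TMM-scaled) for the 5 Ppar receptor genes, ppargc1a, pdk4 and the peroxisomal genes crot and hsd17b4, with points for libraries and a bar for mean ± SD (n = 3 per group at 48 hpf, n = 4 at 24 hpf). At 48 hpf mutants lie above siblings for pparaa, pparab and pparg and below them for ppardb, pdk4 and crot, while at 24 hpf hsd17b4 is the gene among these 9 whose groups do not overlap.

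The test of the difference between the mutant effects at 48 and 24 hpf called 6 of the 37 genes. The effect of the mutation, not the level of RNA, was higher at 48 hpf for acsl1b, cpt1ab, slc25a20 and pparab, and lower for pdk4 and crot. Over all genes tested 3.17% were called, 2.43% higher and 0.737% lower. The calls of acsl1b, slc25a20 and pdk4 held under all 21 alternatives run, and those of cpt1ab, crot and pparab did not, as given above. Calls fell to 2 higher (acsl1b and slc25a20) and 1 lower (pdk4) when 1 of several libraries was left out. These were sibling replicates 2 and 3 and mutant replicate 1 at 24 hpf, and sibling replicate 2 and each mutant replicate at 48 hpf.

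In siblings 11 of the 37 genes were higher and 6 lower at 48 hpf than at 24 hpf, where 52.4% of all genes tested were called, 26.2% higher and 26.3% lower. Each stage carries a batch label of its own, so a batch effect and a stage effect cannot be told apart in this comparison, and the sibling libraries enter the mutant comparisons too. The test of the difference between the mutant effects also compares these batches. Whether a mutant effect varied with stage or with batch therefore cannot be told apart either. The muscle form cpt1b was higher, with 10.2 ± 1.61 CPM at 48 hpf (SD, n = 3) against 1.65 ± 0.843 CPM at 24 hpf (SD, n = 4; 2.62 ± 0.39, adjusted p = 2.34e-05 by edgeR). Also higher were acadl (1.41 ± 0.15), cpt2 (1.24 ± 0.17), pdk4 (1.09 ± 0.15), acaa2 (0.99 ± 0.21), pparaa (0.94 ± 0.19), eci2 (0.77 ± 0.13), acox3 (0.73 ± 0.18), pparab (0.63 ± 0.14), crot (0.38 ± 0.12) and hadhb (0.37 ± 0.085). Lower were acsl1b (-1.35 ± 0.12), slc25a20 (-1.03 ± 0.093), etfa (-0.54 ± 0.090), etfb (-0.44 ± 0.11), pex11a (-0.41 ± 0.17) and etfdh (-0.24 ± 0.090). The calls of pex11a and etfdh were lost under most alternatives, and the other 15 held under all 21. Set beside the mutant values, acsl1b averaged 94.1 ± 14.2 CPM in mutants at 24 hpf, between siblings at 48 hpf (79.7 ± 8.07) and siblings of its own stage (203 ± 10.8). At 48 hpf pdk4 averaged 14.4 ± 2.32 CPM in mutants, against 34.4 ± 2.57 CPM in siblings at 48 hpf and 16.1 ± 2.04 CPM in siblings at 24 hpf. At 48 hpf the mutant mean was below the sibling means of both stages for crot and above them for pparab. At 48 hpf crot averaged 12.7 CPM in mutants, against 21.5 CPM in siblings at 48 hpf and 16.5 CPM at 24 hpf. For pparab these means were 26.6, 13.4 and 8.67 CPM. Whether mutants resemble siblings of another stage was not tested.

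**Figure D5:**
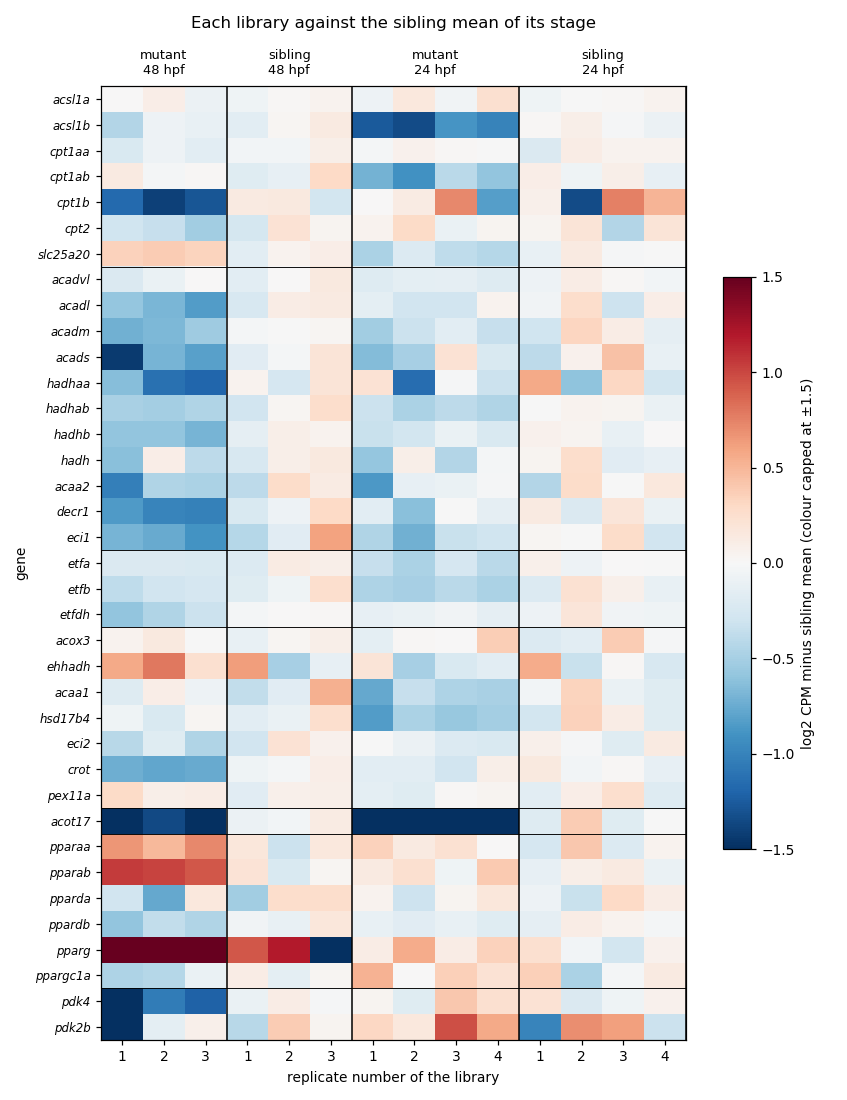
Log2 CPM of each gene (rows, in the order of their roles) in each library (columns, by group and replicate number), minus the mean of the siblings of its stage, with a prior count of 2 and colours capped at 1.5. Among mutants at 48 hpf acadl to eci1, crot and pdk4 are mostly blue and the Ppar alpha genes red, among mutants at 24 hpf acsl1b, cpt1ab and acot17 are blue, and sibling replicate 3 at 48 hpf stands out in pparg and eci1.

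Other genes of the pathway were taken from lists made by gene function. Of 25 other tested genes of mitochondrial fatty acid and branched-chain oxidation, 1 rose and 0 fell at 48 hpf, and 0 rose and 1 fell at 24 hpf, with medians of -0.031 and -0.17. At 48 hpf oxct1a, which uses ketone bodies, rose (0.53 ± 0.11, adjusted p = 0.00649), and at 24 hpf hsd17b10, a dehydrogenase of short chains, fell (-0.42 ± 0.10, adjusted p = 0.0264). For the counts of 0, edgeR gave 3 lower at 48 hpf and 2 higher at 24 hpf at an unadjusted p under 0.05, and DESeq2 called 1 lower at 48 hpf and 0 higher at 24 hpf. Of 42 other tested peroxisome genes 4 rose and 1 fell at 48 hpf, and 2 rose and 3 fell at 24 hpf (medians 0.054 and -0.16). At 48 hpf 18 of the 42 had a negative change, and at 24 hpf 32 had. The list summed to between 527 and 588 CPM in mutants against 746 to 934 CPM in siblings at 24 hpf. At 48 hpf its sums overlapped, with 691 to 725 CPM in mutants against 647 to 753 CPM in siblings. The peroxisome division gene pex11g rose at both stages (1.71 ± 0.22 and 0.76 ± 0.19), pxmp2, a peroxisomal membrane protein gene, rose at 48 hpf (1.91 ± 0.30), and dao.1, a D-amino acid oxidase gene, fell at 24 hpf (-2.60 ± 0.30).

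Of 44 other tested Ppar-linked genes (Rxr partners, coregulators, further acyl-CoA synthetases, fatty acid binders, uncoupling proteins and targets), 10 rose and 2 fell at 48 hpf and 5 rose and 5 fell at 24 hpf, with medians of 0.020 and 0.043. Of the 7 acyl-CoA synthetase genes tested in this list, a family singled out after its values were seen, 4 rose and 0 fell at 48 hpf, the stage at which acsl1a and acsl1b were not called. They were acsl5 (1.35 ± 0.18), acsl4a (1.34 ± 0.12), acsbg2 (1.06 ± 0.12) and acsl3b (0.89 ± 0.11), with adjusted p at most 0.000129. Not called at 48 hpf were acsbg1 (0.99 ± 0.61), acsl3a (0.12 ± 0.15) and acsl4b (0.044 ± 0.22). At 24 hpf acsbg2 (0.47 ± 0.10) and acsl3b (0.39 ± 0.093) rose, and the other 5 were not called. The lipid droplet coat gene plin2, a Ppar target in mammals, rose at both stages (2.44 ± 0.33 at 48 hpf, adjusted p = 0.000133, and 3.06 ± 0.29 at 24 hpf, adjusted p = 3.99e-06). The uncoupling protein gene ucp2 was higher in mutants at 48 hpf, with 187 ± 14.7 against 103 ± 13.6 CPM in siblings (SD, n = 3 each), and lower at 24 hpf, with 80.7 ± 9.35 against 156 ± 18.8 CPM (SD, n = 4 each). Its difference between stages was 1.81 ± 0.17 (adjusted p = 2.07e-05 by edgeR), the same direction as acsl1b and slc25a20. The gene ucp1 fell at 24 hpf (-1.48 ± 0.17, adjusted p = 4.36e-05).

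Some lists of tissue markers differed between mutants and siblings at 1 stage or both, and others did not. In whole embryos fewer cells of a type and less RNA per cell cannot be told apart. At 48 hpf the 18 skeletal muscle markers summed to between 50351 and 54402 CPM in mutants against 62987 to 76782 CPM in siblings. Of these 18 genes 2 fell and 0 rose, and 15 were below without overlap, with the filament gene acta1b (-0.95 ± 0.15) and the calcium pump gene atp2a1 (-0.68 ± 0.13) called. DESeq2 called 6 of them lower, and edgeR gave 11 lower at an unadjusted p under 0.05. At 24 hpf the same list summed to between 19652 and 21981 CPM in mutants against 19154 to 24639 CPM in siblings, which overlapped. The 15 markers of the yolk syncytial layer overlapped at 48 hpf (10255 to 13323 CPM in mutants against 11644 to 14334 CPM in siblings), with 3 of 14 tested called higher and 3 lower. At 24 hpf they summed to between 11356 and 14548 CPM in mutants against 16539 to 19235 CPM in siblings, and 5 fell and 1 rose. Nuclear genes of the respiratory chain and the citrate synthase gene, 21 in all, summed to between 3926 and 4175 CPM in mutants against 4395 to 5276 CPM in siblings at 48 hpf, and to between 3512 and 3689 CPM in mutants against 4271 to 4907 CPM in siblings at 24 hpf. Of the 20 tested, 4 fell at 24 hpf and edgeR called 0 at 48 hpf, where 8 were lower at an unadjusted p under 0.05 and DESeq2 called 3 lower. The count at 24 hpf was 12 lower by DESeq2 and 1 lower with library size only. At an unadjusted p under 0.05 edgeR gave 13 lower at 24 hpf. The 37 genes themselves summed to between 1114 and 1187 CPM in mutants against 1282 to 1586 CPM in siblings at 48 hpf, and to between 1127 and 1233 CPM in mutants against 1455 to 1612 CPM in siblings at 24 hpf. The 11 liver markers summed to between 1292 and 1614 CPM in mutants against 977 to 1059 CPM in siblings at 48 hpf, but gene by gene 4 rose and 2 fell, with a median change of -0.044. At 24 hpf they summed to between 449 and 537 CPM in mutants against 783 to 924 CPM in siblings, and 5 fell and 0 rose. Which tissue these reads came from at that stage was not tested. Of the 9 neural markers tested 2 fell and 0 rose at 48 hpf, 8 had a negative change and 4 were below without overlap (median -0.25), although their sums overlapped. Neural markers at 24 hpf and the 10 heart markers at both stages had 0 calls by edgeR and by DESeq2, and at an unadjusted p under 0.05 edgeR gave 0 heart markers at 48 hpf, 2 lower at 24 hpf, and 1 neural marker lower at 24 hpf. None of these markers was at 0 in all libraries, and the part of these tissues in the changes above was not tested.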

How the data were processed

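The authors deposited 1 table of whole-number read counts for each gene and library, made with FastQC 0.12.1, Trim Galore 0.6.10, STAR 2.7.10b and featureCounts 2.0.6 on the genome build GRCz11, per the submitters' processing notes. The sources used here do not give the annotation, the strand setting or how multi-mapping reads were counted. Libraries were made from TRIzol-extracted total RNA with a NEBNext Ultra kit, per the labels' protocols.

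Counts were fitted with edgeR 4.0.16 (R 4.3.3) after filterByExpr with a minimum count of 10, as 4 groups of 14 libraries with 10 residual degrees of freedom and TMM factors, and checked on simulated data. The alternatives were DESeq2 1.42.0, RLE factors, library size only, other low-count filters, the libraries of a stage only, a replicate block, leaving out each library and, chosen after seeing the data, leaving out both libraries of low mitochondrial share. The 37 genes, their roles and the other lists were chosen with earlier results of these data known. Per-library values are given for genes called in a mutant comparison or in the difference between stages, and for some others of interest chosen after their values were seen. Of the names in the other lists, 5 were matched through RefSeq synonyms and 2 were not found. Gene order came from RefSeq (GRCz12tu), and sequences were not analysed here.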

Additional observations from a re-analysis of the deposited data

Results flagged for a closer look

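The effect of the mutation differed between 48 and 24 hpf for 6 of the 37 genes in edgeR's test of the difference (48 minus 24 hpf, log2). Stage and batch coincide, so they cannot be told apart in this test. The difference was 0.90 for acsl1b, 0.67 for cpt1ab, 0.72 for slc25a20, 0.81 for pparab, -0.63 for crot and -1.39 for pdk4.

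Among 74 sets of 4 libraries (37 genes in mutants and in siblings at 24 hpf), 2 held a library far from the other 3, while chance alone gives about 1 in 20. For acaa2 mutant replicate 1 had 18.0 CPM, against 30.2 to 32.3 CPM in the other mutants. For etfdh sibling replicate 2 had 60.4 CPM, against 50.4 to 51.3 CPM in the other siblings, and this is a library of low mitochondrial share. The groups of 3 libraries at 48 hpf were too small for this rule.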

How the results depend on the processing

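No called change of a gene turned its sign under any alternative, but 4 uncalled changes at 48 hpf, 7 at 24 hpf and 4 of the differences between stages did, for example cpt1ab at 48 hpf (-0.059 to 0.19) and hsd17b4 at 48 hpf (-0.17 to 0.041). With library size only the balance of calls over all genes at 24 hpf turned to 63.7% higher, against 39.2% with TMM, and the median of the entry genes to 0.012, against -0.078. Called under every alternative were acsl1b, cpt1ab and acot17 among the 8 genes called at 24 hpf (22 alternatives), hadhb, decr1, crot, pparab and pdk4 among the 14 at 48 hpf (22), acsl1b, slc25a20 and pdk4 among the 6 differences between stages (21), and 15 of 17 genes between the sibling stages (21). The rise of slc25a20 at 48 hpf was not called with RLE factors, no low-count filter, the CPM filter or the libraries of the stage only, so that 1 gene of the 37 was higher instead of 2 under each of these. DESeq2 called 628 genes higher and 1007 lower at 24 hpf, 863 lower at 48 hpf, and 506 lower for the difference, where 4 of the 37 were lower against 2. With library size only, 5 of the 37 were lower at 24 hpf, among 550 genes higher and 313 lower. With the libraries of the stage only, 853 genes were lower at 24 hpf and 615 higher at 48 hpf. For the difference, 1 of the 37 was lower with no filter, where edgeR did not call crot (adjusted p = 0.0541). With the CPM filter 281 of all genes were lower for the difference. Without both libraries of low mitochondrial share 701 genes were lower at 48 hpf and 481 for the difference. Of the 37, edgeR then no longer called acads (adjusted p = 0.0561) and eci1 (0.073) at 48 hpf, and called cpt1b (0.00939) and pparg (0.0248). Among the differences between stages crot (0.0501) and pparab (0.0506) were no longer called, and etfdh was called (0.0325). The cause of these shifts was not tested.

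Leaving out 1 library at a time gave, of the 37, between 4 and 10 lower at 24 hpf, 1 to 3 higher and 6 to 14 lower at 48 hpf, and 2 to 4 higher and 1 to 2 lower for the difference. Over all genes it gave 263 to 613 higher and 258 to 1114 lower at 24 hpf, 726 to 1130 higher and 207 to 502 lower at 48 hpf, and 342 to 1053 higher and 88 to 375 lower for the difference. The highest counts at 24 hpf, 10 of the 37 included, came without sibling replicate 3 of 48 hpf, and the lowest member counts without sibling replicate 2 or mutant replicate 4 of 24 hpf (4 lower each, at 24 hpf) and without mutant replicate 1 of 48 hpf (6 lower, at 48 hpf).

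The labels number the replicates alike in mutants and siblings, but do not say that a number marks a shared clutch, so the main fit holds no replicate block. Deviations from the group means of same-numbered libraries correlated with r from 0.068 (replicate 4 at 24 hpf) to 0.31. Every library correlated best with its own number, a hint from the data and not from the design. With the replicate block 869 genes were lower at 24 hpf and 311 for the difference. Of the 37, 8 were lower at 24 hpf and 15 lower and 3 higher at 48 hpf. In the mutant comparisons and their difference the block added calls at 48 hpf for hadhaa (adjusted p = 0.000559), acaa2 (0.000949), cpt1b (0.0450) and pparg (0.0479), and the difference of decr1 (0.0497), and the difference of crot was not called (0.0637).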
